A study of Caenorhabditis elegans with 2 samples.

Results

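The mitochondrial ribosomal protein genes of Caenorhabditis elegans were examined for peaks of the nuclear hormone receptor NHR-102. They were taken by name, as every protein-coding gene called mrpl-* or mrps-* in the annotation, a rule that uses no measured value, although the family was picked for description with earlier results of these data known. This gave 70 genes of 19985 protein-coding genes, 41 for proteins of the large subunit (mrpl) and 29 for proteins of the small subunit (mrps). The peaks came from chromatin immunoprecipitation and sequencing (ChIP-seq), which recovers the DNA attached to a chosen protein. Whole hermaphrodites of strain OP463 were used as L4 larvae, 50 h after the start of synchronous growth from starved L1 larvae. These animals carry unc-119(tm4063) on chromosome III and the transgene array wgIs463, from which NHR-102 is made with GFP and FLAG at its C terminus, and the description names an antibody against GFP, while the antibody field names nhr-102 itself. The series held 1 group with 2 biological replicates. Untagged worms were not analysed here, so signal that depends on the tagged protein cannot be told apart from other signal, and whole animals do not show in which tissue a signal arose.

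Mitochondria keep a small genome of their own. In animals the few proteins it encodes are mainly subunits of the respiratory chain and the ATP synthase. They are made by a dedicated ribosome inside the organelle. The RNAs of that ribosome come from the mitochondrial genome, while its proteins are encoded in the nucleus, made in the cytosol and imported. In C. elegans, lowering mitochondrial ribosomal proteins such as MRPS-5 is known to activate the mitochondrial unfolded protein response and to extend lifespan. Many worm genes lie in operons, in which a promoter ahead of the first gene serves all of them and the joint transcript is cut into separate messages by trans-splicing.

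Around every annotated 5' end, a window reaching 1000 bp upstream and 200 bp downstream was treated as promoter. A gene was counted where the summit of a peak, its highest point, lay in such a window. The sequences under 6 of the 7 strongest such peaks are shown because they are the DNA on which strong signals of the family stood. The peak of mrpl-23, the fourth by signal, is left out because its chromosome is not among those whose sequence is printed here. Each runs 5' to 3' on the strand of the gene, with 50 bp on each side of the summit, which is base 51 of 101. Capitals mark matches, on either strand, to any of the motifs searched in the paragraphs on motifs that follow. The letters were read from the RefSeq genome of build WBcel235, whose chromosomes are those of ce11. The regions are chrIV:14767857-14767957 (minus strand) for mrps-7, chrII:156061-156161 (minus) for mrpl-28, chrIII:10707189-10707289 (plus) for mrpl-12, chrIV:443810-443910 (plus) for mrpl-55, chrIII:1202363-1202463 (minus) for mrpl-45 and chrV:12728414-12728514 (plus) for mrpl-49. These 6 summits were intergenic, while that of mrpl-23 lay in an intron of a neighbouring gene.
mrps-7: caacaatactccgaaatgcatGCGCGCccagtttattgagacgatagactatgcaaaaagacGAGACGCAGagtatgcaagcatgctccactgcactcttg
mrpl-28: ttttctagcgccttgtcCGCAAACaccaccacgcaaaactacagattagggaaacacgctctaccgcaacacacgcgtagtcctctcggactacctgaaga
mrpl-12: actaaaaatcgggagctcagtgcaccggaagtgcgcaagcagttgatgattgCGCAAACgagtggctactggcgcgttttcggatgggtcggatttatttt
mrpl-55: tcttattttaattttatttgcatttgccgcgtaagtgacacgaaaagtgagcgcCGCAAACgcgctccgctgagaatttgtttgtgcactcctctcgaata
mrpl-45: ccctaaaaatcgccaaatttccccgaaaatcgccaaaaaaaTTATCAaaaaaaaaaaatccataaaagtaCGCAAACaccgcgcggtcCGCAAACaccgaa
mrpl-49: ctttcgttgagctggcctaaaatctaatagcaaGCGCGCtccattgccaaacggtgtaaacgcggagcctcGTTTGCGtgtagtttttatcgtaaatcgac

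The letters CGCAAAC stood in 5 of these 6 sequences, once each in mrpl-28, mrpl-12, mrpl-55 and mrpl-49 and at 2 places in mrpl-45. The peak of mrpl-23, which is not shown, had no copy within 100 bp of its summit. The letters were picked out after the sequences had been read, so their frequency here is a description only. Within 100 bp of the summit they were found in 6 of the 11 peaks of the family, the sixth being that of mrpl-32, and in 59 of all 1526 peaks in promoter windows (3.87%). The family's genes without such a peak offer sequences on which the letters were not chosen. In the 201 bp directly upstream of the outermost 5' end, CGCAAAC stood in 4 of these 58 genes (6.90%), namely mrps-28, mrpl-51, mrps-15 and mrps-18A, and in 2.20% of all protein-coding genes. The count is small, and the difference was not tested. In the list pooled over both replicates, mrps-28 had its promoter summit at -842 bp, outside these 201 bp. The genes mrpl-51, mrps-15 and mrps-18A had none in that list, so these copies do not tie the letters to pooled signal. Weak summits stood in single replicate lists, for mrps-15 at -202 bp (10.5, replicate 2). For mrps-18A they stood at -355 bp (14.3, replicate 1) and 29 bp (11.1, replicate 2). A link of these to the letters was not tested.

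Other motifs were searched in the same way, on both strands. CTGCGTCTC was found in 1 of the 11 peaks, that of mrps-7, and in 9.44% of all promoter peaks, and in 2 of the 70 upstream regions (mrps-7 and mrpl-36) against 2.34% of all genes. GCGCGC was found in the peaks of mrps-7 and mrpl-49 (2 of 11, against 9.50% of all promoter peaks) and in 5 of the 70 upstream regions against 2.54%. TGATAA, the core letters recognised by GATA factors, stood in 4 of 11 peaks (mrps-7, mrpl-45, mrps-31 and mrpl-15) against 24.4%. The half-site of nuclear receptors, AGGTCA, stood in 0 of 11 against 5.64%, the E-box CACGTG in 0 of 11 against 8.45%, and CGCGCAGG in 0 of 11 against 0.459%. TATAAA was found in 1 of 11 peaks against 19.8%, and ATTGG in 1 of 11 against 30.1%. Copies of GCGCGC can overlap copies of CGCGCAGG and of CGCAAAC. The GC content of the 101 bp around the summit had a median of 43.6% (34.7 to 55.4%) in the family's peaks and 44.6% in all promoter peaks.

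A promoter summit in the final list of reproducible peaks was found for 12 of the 70 genes (17.1%, exact 95% binomial interval 9.18 to 28.0%), where 8.95% of all protein-coding genes had one. This list, named IDR list here because the irreproducible discovery rate was used to make it, held 2796 peaks. They were the 2796 of highest signal in the list pooled over both replicates. Signal is the authors' own value for each peak, on a scale not given in the sources used here, and it can be compared only within a list. The 12 genes were mrps-7, mrpl-28, mrpl-12, mrpl-23, mrpl-55, mrpl-45, mrpl-49, mrpl-1, mrps-24, mrpl-32, mrps-31 and mrpl-15. They shared 11 peaks, since mrpl-1 and mrps-24 lie head to head over a single one. Among the 2796 strongest peaks of each replicate's own list, 11 genes had a promoter summit in replicate 1 and 12 in replicate 2. The share in replicate 1 was 15.7% (exact 95% binomial interval 8.11 to 26.4%), and this interval contained the 8.65% of all genes. In replicate 2 the share was 17.1% (9.18 to 28.0%), against 8.40% of all genes. The genes of both replicates had 10 in common, all of them among the 12 with an IDR promoter summit.

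The large subunit had 9 of 41 genes with an IDR promoter summit (exact 95% binomial interval 10.6 to 37.6%) and the small subunit 3 of 29 (10.3%, 2.19 to 27.4%). The share of the small subunit is close to the 8.95% of all genes, which lies within its interval and below that of the large subunit. The intervals of the subunits overlap widely and cover counting error only. In the full pooled list the order was the other way, with 29 of 41 large-subunit genes (70.7%) and 22 of 29 small-subunit genes (75.9%), against 34.3% of all genes. The difference between the subunits was not tested.

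The strongest signal of the family stood at mrps-7, for the counterpart of a bacterial protein that binds the RNA of the small subunit, with 215 in the IDR list (rank 694 of 2796). Replicate 1 gave it 95.8 (rank 978 of 30000) and replicate 2 gave 119 (rank 590). Its summit lay -177 bp from the 5' end, negative values being upstream, and -294 bp from that of the neighbour Y57G11C.3, whose window it shared. The summit of replicate 2 lay 16 bp from that of the IDR peak, and that of replicate 1 at the same base.

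The peak of mrpl-28, a large-subunit protein with a bacterial counterpart, had a signal of 210 (rank 726) with its summit at -102 bp, the closest to a 5' end in the family. It was even between replicates, with 110 (rank 755) in replicate 1 and 102 (rank 802) in replicate 2, and lay in the window of no other gene. The gene mrpl-12, for the protein of the flexible stalk that in bacteria recruits translation factors, had a signal of 189 (rank 888), with 98.7 (rank 926) and 87.4 (rank 1063) in replicates 1 and 2. Its summit stood far from its own 5' end, at -522 bp, and nearer to those of Y39A1A.22 (-211 bp) and Y39A1A.21 (-217 bp).

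The gene mrpl-23 encodes a large-subunit protein whose bacterial counterpart lies near the exit of the peptide tunnel. Its peak (chrI:6212620-6213063; signal 167, rank 1090) was almost equal between replicates, at 89.2 (rank 1117) and 85.5 (rank 1105). The summit stood at -957 bp, in an intron of the upstream gene fars-1, a cytosolic tRNA synthetase subunit, where the annotation also places a pseudogene, the non-coding RNA gene T08B2.14 and, within 200 bp, the snoRNA gene T08B2.13. No other member's IDR summit lay inside a gene or within 200 bp of a tRNA, snRNA, snoRNA, miRNA or rRNA gene. The part of the snoRNA locus in the mrpl-23 signal was not tested.

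The gene mrpl-55, for a protein found in mitochondrial but not in bacterial ribosomes, had the least even ranks among the 7 strongest peaks. Its IDR peak (signal 152, rank 1266, summit at -125 bp) matched 1 peak of replicate 1 with a signal of 102 (rank 871). In replicate 2 the IDR summit lay between the summits of 2 overlapping peaks, 1 of signal 60.8 (rank 1976) at 103 bp to one side and 1 of signal 14.9 (rank 20057) at 96 bp to the other. The ranks of the replicates thus differed by a factor of 2.27 with the stronger peak of replicate 2, and the gap between ranks 871 and 20057 arose where the nearer summit was taken.

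The remaining peaks had their summits between -709 and -136 bp from the members' 5' ends. The gene mrpl-45, whose human counterpart helps to hold the ribosome at the inner membrane, had a signal of 151 (rank 1271) with 89.0 and 64.4 in the replicates (ranks 1121 and 1789). Its summit at -405 bp was nearer to the 5' end of Y119D3B.12, at -133 bp. The gene mrpl-49, for a protein specific to mitochondrial ribosomes, had 151 (rank 1279), with 78.2 and 69.5 (ranks 1381 and 1573). Its summit at -167 bp also lay in the window of rpl-28, a protein of the cytosolic ribosome, at -352 bp, so that 1 peak counted for both ribosomes.

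The peak between mrpl-1, for the protein of the mobile stalk near the tRNA exit site, and mrps-24, a small-subunit protein, had a signal of 125 (rank 1736). The replicates gave 71.1 (rank 1633) and 49.3 (rank 2771). It lay -208 bp from mrpl-1, -136 bp from mrps-24 and -173 bp from emc-6, a subunit of the membrane protein insertase of the endoplasmic reticulum, which overlaps mrpl-1 on the same strand. The gene mrpl-32, a large-subunit protein with a bacterial counterpart, had 121 (rank 1816), with 57.3 and 69.3 (ranks 2345 and 1580) and a summit at -325 bp.

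The 2 weakest peaks of the 11 had the least even ranks. The gene mrps-31, for a protein specific to mitochondrial ribosomes, had 98.9 (rank 2447, summit at -203 bp), with 38.3 (rank 4714) in replicate 1 and 62.6 (rank 1873) in replicate 2. The gene mrpl-15, a large-subunit protein with a bacterial counterpart, had 98.1 (rank 2483, summit at -709 bp), with 58.9 (rank 2243) and 32.4 (rank 5788). Each was among the 2796 strongest of a single replicate, mrps-31 of replicate 2 and mrpl-15 of replicate 1.

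**Figure D1:**
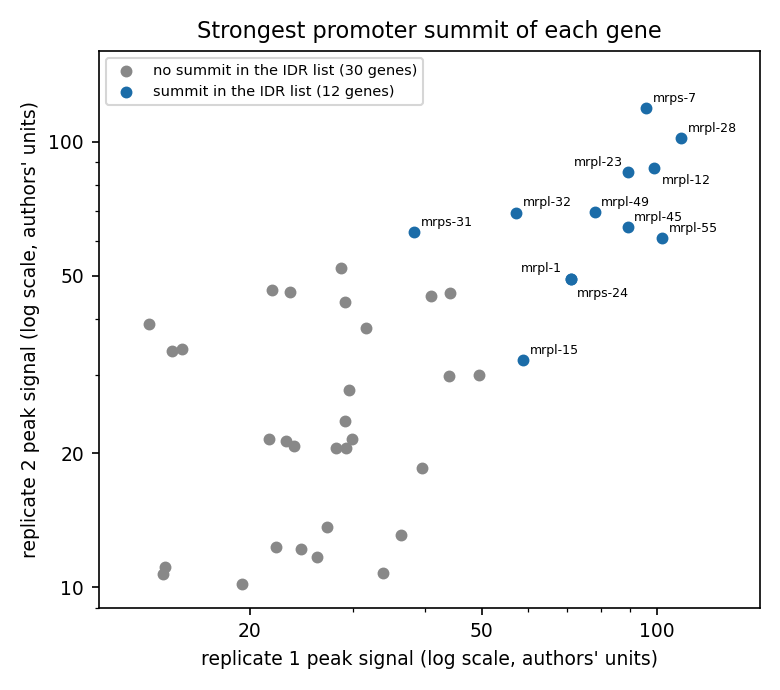
Signal of the strongest promoter summit of each mitochondrial ribosomal protein gene in replicate 1 (horizontal axis) and replicate 2 (vertical axis), both on log scales in the authors' units, for the 42 genes with a summit in both lists. Each replicate's own strongest summit was taken, so a point can join different peaks, as at mrps-33 (32 bp in replicate 1, -987 bp in replicate 2). Blue points are the 12 genes with a summit in the IDR list, of which mrps-31 and mrpl-15 lie farthest from the others; grey points are the 30 genes without one.

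Between replicates, all 11 peaks were found in both full lists, as were 98.3% of all 1526 promoter peaks, and 9 of 11 (81.8%) were among the 2796 strongest of both, against 70.6% of all. The higher rank number of a peak divided by the lower, over the replicates, had a median of 1.60 in the family and 1.41 in all promoter peaks. Signals were moderate. The median over the 11 peaks was 151, against 144 for all promoter peaks, and 7 of the 11 stood above the latter. None reached the top of the list, since 407 promoter peaks (26.7%) had the signal of mrps-7 or more. All 12 summits lay upstream of the member's 5' end, with a median position of -206 bp, where 90.2% of all gene and peak pairs were upstream and their median was -242 bp. A window shared with another gene was found for 5 of the 11 peaks and for 24.9% of all promoter peaks.

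Below the IDR list, weaker summits covered most of the family. In the pooled list of 30000 peaks, 51 of the 70 genes (72.9%, exact 95% binomial interval 60.9 to 82.8%) had a promoter summit, against 34.3% of all protein-coding genes. The replicate lists gave 51 (72.9%, against 36.4%) and 52 (74.3%, against 35.7%), and 42 of the 70 genes, against 28.8% of all, had a summit in both. A summit anywhere in the window counted, so it need not be the same peak in both replicates. Per the submitters' notes, these full lists hold background as well as peaks, so a summit in them is not a called peak. With the 5000 strongest pooled peaks 22 genes had a summit (31.4%, against 13.3%), and with the 10000 strongest 31 had one (44.3%, against 20.3%). The family's share was thus above that of all genes at each of these list lengths, in the pooled list and in both replicates. At the very top of the lists it was not. Among the 500 strongest peaks no member had a promoter summit in any of the 3 lists, against 1.92% of all genes in the pooled list and in replicate 1 and 1.90% in replicate 2. Among the 1000 strongest the family stood at 4.29% in the pooled list (all genes 3.64%), 5.71% in replicate 1 (3.53%) and 2.86% in replicate 2 (3.49%).

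**Figure D2:**
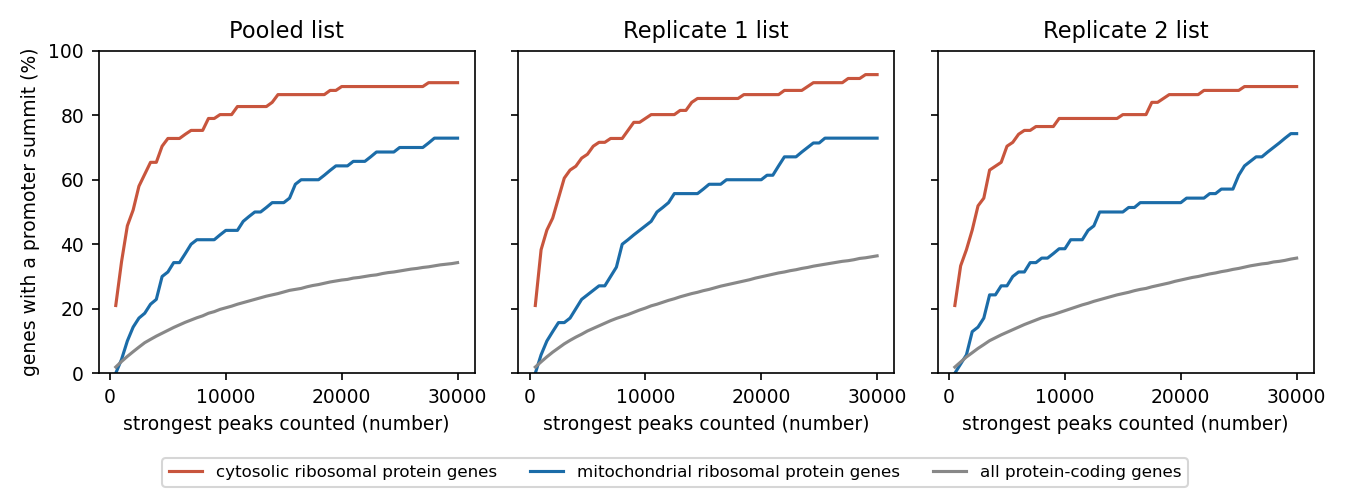
Share of genes (vertical axis, %) with a promoter summit among the given number of strongest peaks (horizontal axis) in the pooled list and in each replicate list. The mitochondrial family (blue) stays below the cytosolic ribosomal protein genes (red); it starts at 0% with 500 peaks, below all protein-coding genes (grey), is above them in all 3 lists from 1500 peaks on, and ends at 72.9%, 72.9% and 74.3% with all 30000 peaks.

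The 39 genes with a pooled summit below the IDR list had signals from 17.2 to 88.1, with a median of 37.3, under the lowest signal of the IDR list, 90.5. Nearest to it was mrpl-41, a large-subunit protein, with 88.1 (rank 2892), and 44.1 and 45.7 in the replicates. It was followed by mrpl-17, a large-subunit protein with a bacterial counterpart, at 84.8 (rank 3053; replicates 40.9 and 45.0). The next was mrps-14, a small-subunit protein, at 79.5 (rank 3384; replicates 28.7 and 52.2), the only gene outside the 12 that was among the 2796 strongest of a replicate. Then came mrpl-50 (73.9; replicates 29.1 and 43.6), mrpl-13 (70.8; 31.7 and 38.3) and mrpl-53 (70.5), which had 31.2 in replicate 1 and no promoter summit in replicate 2. The gene mrps-5, known for the effect of its loss on lifespan, was below the median of these 39, with a pooled signal of 26.8 (rank 18017). Its summit lay at -851 bp, in an intron of the upstream gene sel-1. Replicate 1 gave 12.9, and replicate 2 had no promoter summit for it.

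No promoter summit in the pooled list was found for 19 genes. For 9 of them none was found in the replicate lists either: mrpl-2, mrpl-16, mrpl-20, mrpl-42, mrpl-44, mrpl-47, mrpl-51, mrps-18.C and mrps-34. The other 10, mrpl-10, mrpl-11, mrpl-22, mrpl-36, mrpl-37, mrps-2, mrps-15, mrps-18A, mrps-26 and mrps-30, had weak ones in at least 1 replicate. The highest of these was 28.3 at mrpl-37 in replicate 1. Only mrps-18A had summits in both replicates, at different places, with 14.3 at -355 bp and 11.1 at 29 bp. These lists do not show how much signal lies under regions without a peak.

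The layout of the genes was considered next, since a gene inside an operon need not have a promoter at its own 5' end. A protein-coding gene on the same strand ended within 500 bp upstream of 29 of the 70 members (41.4%), against 20.2% of all protein-coding genes. The distance had a median of 105 bp and lay between 80 and 120 bp for 19 of the 29, the spacing usual in worm operons, while 2 overlapped their neighbour. Annotated operons were not used here. Members without such a neighbour had an IDR promoter summit in 9 of 41 cases (exact 95% binomial interval 10.6 to 37.6%), against 8.99% of all such genes. Members with one had 3 of 29 (10.3%, 2.19 to 27.4%), against 8.80% of all such genes. The last share is close to its background, and the intervals of both overlap, so a difference between the layouts was not shown.

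The promoter of the first gene in the run of close same-strand genes held an IDR summit for 10 of the 29 members (34.5%, exact 95% binomial interval 17.9 to 54.3%), against 15.4% of all genes with a close neighbour. This count was added after the values had been seen. For 8 of the 10 the member's own window held none. The strongest such peak lay ahead of clsp-1, at -252 bp, with a signal of 415 (rank 182, replicates 215 and 201). The gene mrpl-54 follows clsp-1 after 373 bp, wider than the spacing usual in operons. Whether the promoter of clsp-1 serves it was not tested. The next of the 8 were F29B9.11, ahead of mrps-21, with 314 (rank 316; replicates 156 and 160), and F21D5.7, the first of a run that ends with mrps-33, with 211 (rank 718; replicates 89.3 and 124). All 3 peaks were in the lists of both replicates.

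The other 5 first genes had weaker peaks, also present in both replicates. The peak of W04D2.4, ahead of mrps-11, had 185 (replicates 97.9 and 88.2), and that of nrde-2, a gene of nuclear RNA interference ahead of mrps-14, had 179 (71.7 and 106). The peak of atp-2, the beta subunit of the mitochondrial ATP synthase, had 145 (72.9 and 72.5), and its run continues with prmt-5 and mrps-26. The peak of tag-124 had 140 (75.0 and 71.9), with mrpl-53 at the end of its run. The peak of misc-1, a carrier of the inner mitochondrial membrane 235 bp ahead of mrpl-41, had 118 (63.1 and 57.5). The summits counted for nrde-2 and misc-1 lay far from these genes' 5' ends, at -937 and -810 bp. Those of W04D2.4, atp-2 and tag-124 lay at -143, -270 and 12 bp. The 2 members with a summit of both kinds were mrpl-32 and mrpl-1. The first gene ahead of mrpl-32, the proteasome subunit gene rpn-3, ends 410 bp away. It had a separate peak of 353 (rank 242, replicates 175 and 176). The gene mrpl-1 shares its peak with emc-6. With either the member's own promoter or that of its run's first gene counted, 20 of the 70 genes had an IDR summit (28.6%), against 11.4% of all protein-coding genes. These shares are not like for like, because only genes with a close neighbour gain a second promoter. Such a neighbour was found for 41.4% of members and 20.2% of all genes, and the part of this layout in the difference was not tested.

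**Figure D3:**
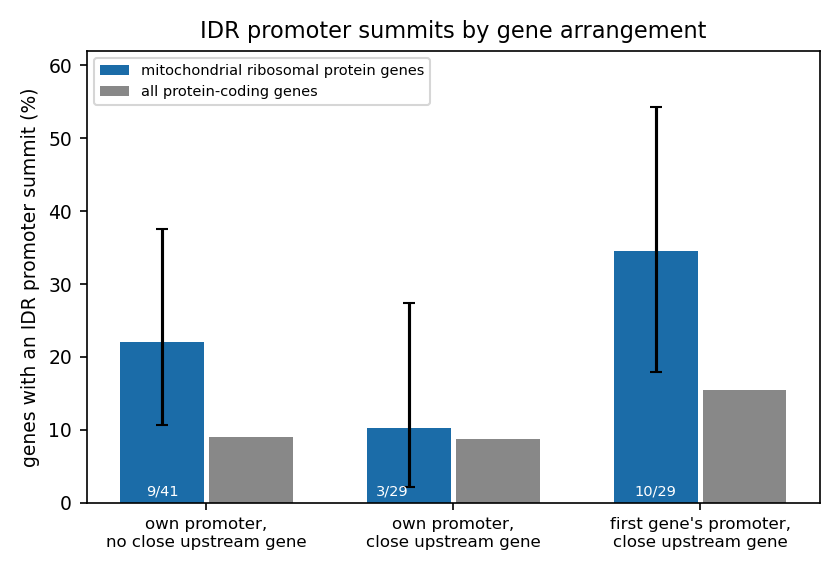
Share of genes (vertical axis, %) with an IDR summit in their own promoter window, for genes without and with a close same-strand upstream gene, and in the window of the first gene of the run. Blue bars are the mitochondrial ribosomal protein genes with exact 95% binomial intervals and their counts, grey bars all protein-coding genes; the members with a close neighbour stand at 10.3% for their own promoter and at 34.5% for the first gene's.

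The position of the strongest pooled summit was also set beside the layout, after a pattern had been noticed in the values, and no test was made. Of the members with a close upstream neighbour, 23 had a pooled promoter summit, and in 12 of them (52.2%, exact 95% binomial interval 30.6 to 73.2%, against 31.3% of all such genes) the strongest lay downstream of the 5' end. Of the 28 members without such a neighbour, 1 had it downstream (3.57%, interval 0.0904 to 18.3%, against 12.1%), namely mrpl-38. The 12 were mrpl-41, mrps-14, mrpl-50, mrpl-13, mrpl-53, mrps-21, mrps-33, mrpl-24, mrpl-30, mrps-27, mrpl-4 and mrpl-48, at 49 to 182 bp with a median of 83.0 bp. These summits stood in a coding exon of the member in 10 cases and in an intron in 2. None of the 12 was in the IDR list, and their signals ran from 22.4 to 88.1. In replicate 1 the counts were 11 of 20 with a neighbour (all genes 30.7%) and 2 of 31 without (6.45%, all genes 11.5%). In replicate 2 they were 7 of 22 (31.8%, all genes 30.0%) and 1 of 30 (3.33%, all genes 12.2%). Both pooled intervals contain the share of all genes of the same layout, and in replicate 2 the share with a neighbour was close to it, so an excess in the family was not shown.

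**Figure D4:**
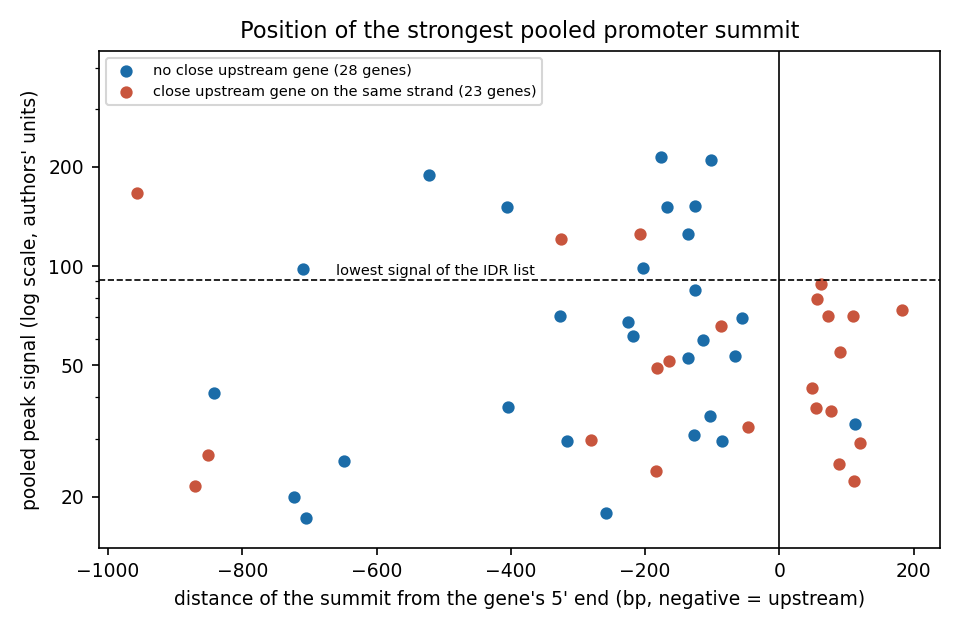
Distance of the strongest pooled promoter summit from the 5' end of each mitochondrial ribosomal protein gene (horizontal axis, bp, negative upstream) against its signal (vertical axis, log scale, authors' units), for the 51 genes with one. Red points are genes with a close same-strand upstream gene, blue points the others; of the 13 summits downstream of the 5' end, 12 are red, and all of them lie below the lowest signal of the IDR list (dashed line, 90.5).

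By chromosome, members lay on all autosomes and none on X. IDR promoter summits were found for 4 of 22 members on III, 4 of 11 on IV, 2 of 15 on I, 1 of 12 on II and 1 of 10 on V. The shares of all protein-coding genes with one were 12.5%, 8.59%, 9.35%, 8.52% and 7.11% in the same order. Chromosome III thus held the most members and also had the highest background of these chromosomes.

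Other nuclear genes that serve mitochondrial gene expression and protein import were read against the same background. Of 18 matched genes for mitochondrial translation factors and tRNA synthetases, 3 (16.7%) had an IDR promoter summit, against the 8.95% of all genes. They were ears-2, a glutamyl-tRNA synthetase (signal 281; replicates 152 and 131), gfm-1, an elongation factor (142; 57.2 and 82.4), and aars-1, an alanyl-tRNA synthetase (115; 66.9 and 49.9). All 3 peaks lay in a window shared with another gene, in the same order uncp-18, rict-1 and rga-1. Of 10 matched genes for mitochondrial DNA maintenance, transcription and ribosome assembly, mtss-1 alone had one. It encodes the single-stranded DNA-binding protein of mitochondria, and its signal was 131 (56.3 and 75.0) in a window shared with mig-22.

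Of 18 matched genes for import and chaperones, 8 (44.4%) had an IDR promoter summit, against 8.95% of all genes. The 8 were led by hsp-60, the chaperonin of the matrix (signal 814, replicates 381 and 433). Next was tomm-20, the import receptor of the outer membrane (404, replicates 195 and 207). The chaperone hsp-6 (162; 93.6 and 65.0) and the inner membrane translocase gene timm-17B.1 (156; 88.9 and 64.9) followed. The others were mppb-1, a subunit of the protease that removes import signals (116; 50.7 and 63.7), tin-9.1, a small chaperone between the membranes (104; 48.0 and 54.2), tomm-7, a small subunit of the outer membrane translocase (92.4; 37.7 and 49.8), and timm-23, the inner membrane channel (90.7; 51.7 and 36.7). The peaks of hsp-60, hsp-6, tomm-7 and timm-23 also lay in the window of a neighbouring gene. The lists are short, and no test of their difference from the ribosomal family was made.

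The cytosolic ribosomal protein genes encode the proteins of the ribosome outside the organelle. An IDR promoter summit was found for 49 of these 81 genes (60.5%, exact 95% binomial interval 49.0 to 71.2%), against 8.95% of all genes. The cytosolic interval does not overlap that of the mitochondrial family, 9.18 to 28.0%. The 46 cytosolic peaks had a median signal of 194, against 151, and 20 of them exceeded the strongest mitochondrial one. The highest were rpl-3 (1849, rank 10) and rpl-20 (1556, rank 25). A close same-strand upstream gene was found for 11.1% of the cytosolic genes, against 41.4% of the mitochondrial ones, and the part of this layout in the difference was not tested.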

How the data were processed

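The 4 deposited ce11 peak lists were used, each in narrowPeak format. Per the submitters' notes, the list of each replicate and the pooled list, of 30000 entries each, were made from alignments and 1 control file and hold peaks and background, and the IDR list was derived from these 3. Peak signal was used as deposited by the authors. Which aligner and caller were run, and at which IDR threshold, is not given in the sources used here. Read numbers were not used, so depth is unknown. Lists in ce10 were not used.

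Genes and 5' ends were taken from Ensembl release 115 (WBcel235), and all ce11 peaks ended within the chromosomes of that build. Summits were the start of the interval plus the offset in the tenth column. Where windows overlapped, a summit was counted for every gene concerned. A replicate peak matched where its interval held the IDR summit, and the strongest was taken. Where a gene had several promoter summits, the strongest was used. A run was followed upstream from gene to gene while the gap was at most 500 bp. With 1 group, no test between conditions was possible, and none was made over the gene lists. Shares are given with exact (Clopper-Pearson) binomial intervals, which cover counting error only, beside the share over all protein-coding genes. Neighbouring genes can share a peak, so genes are not independent.

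The members, lists and motifs were chosen with earlier results of these data known. Named are all members with an IDR promoter summit, the 6 strongest below, all without a pooled summit, and all members of the short lists with an IDR summit; mrps-5 and the run and downstream genes were added after their values were seen. Of the short lists, 14 names matched no annotated gene. Window assignment was tested on 200 simulated summits, some of them placed far outside the window of the chosen gene. For 200 of 200 the assigned genes, if any, were those found by a direct search of all windows. Calculations used Python 3.11.15 and SciPy 1.17.1.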

Additional observations from a re-analysis of the deposited data

How the results depend on the processing

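The count of 12 members with an IDR promoter summit was 9 when the window was cut to 500 bp before and 100 bp after the 5' end, 9 with each summit given only to the nearest 5' end, 14 with 2000 bp upstream, 15 with any overlap of peak and window, and 7 among the stronger IDR peaks (those above the list's median). The shares of all genes moved with it, from 4.86% among the stronger IDR peaks to 11.3% with 2000 bp. With the 500 bp window the family stood at 12.9% against 6.70% of all genes. With the nearest 5' end only it stood at 12.9% against 6.92%, and with any overlap at 21.4% against 9.64%. The family's share was thus above that of all genes in these settings. No interval was computed for them, so an excess beyond counting error was not shown there, nor among the stronger IDR peaks. With single replicates the counts were 11 to 12 for the family, 8 to 9 for the large subunit and 2 to 4 for the small subunit. The large subunit's 9 became 6 with the 500 bp window, with the nearest 5' end only and among the stronger IDR peaks. It stayed at 9 with 2000 bp upstream and with any overlap. The small subunit's 3 became 5 with 2000 bp upstream, 6 with any overlap and 1 among the stronger IDR peaks. Longer lists, added after the data were seen, gave 22 members with 5000 pooled peaks, 31 with 10000, 51 and 52 with the full replicate lists and 51 with the full pooled list. The median signal of 151 became 167 among the stronger IDR peaks, and the median position became -325 bp with 2000 bp upstream. Members with a close neighbour and an IDR summit numbered 10 with the first gene's promoter and 11 with that of any gene of the run, in place of 3. Among all 4034 genes with a close neighbour, the counts were 355 with the own promoter, 620 with the first gene's and 927 with any gene's. No paired analysis was possible because the series holds 1 group. Depth is unknown, so a missing peak is not shown to be missing binding.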
